A study of Mus musculus with 26 samples.

Results

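The Hox genes are the 39 protein-coding genes whose symbol is *Hoxa*, *Hoxb*, *Hoxc* or *Hoxd* followed by a number, out of 55401 genes counted in both deposited count tables. They were taken by symbol alone. The *Hoxa* cluster holds 11 of them on chromosome 6, the *Hoxb* cluster 10 on chromosome 11, the *Hoxc* cluster 9 on chromosome 15 and the *Hoxd* cluster 9 on chromosome 2 (GRCm38, GENCODE M21). Their levels were followed in mouse dorsal root ganglia (DRG, the sensory ganglia beside the spinal cord) and in neurons cultured from them.

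Hox genes encode homeodomain transcription factors that give cells their position along the head-to-tail axis. Within a cluster the genes lie in order of paralog number, and low numbers are switched on further forward in the body than high numbers, so the last active paralog of a tissue marks its axial level. Neurons keep part of this code in adult life, and in the lumbar region the posterior members, from the ninth paralog group on, pattern the nerves of the hindlimb. *Hoxd1* stands apart, since in mouse DRG it is known from pain-sensing neurons and their wiring rather than from a rostral level.

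All ganglia came from lumbar levels 4 to 6 and were collected 2 to 4 hours after lights on. Conditional knockout (cKO) mice were Ahr f/f Thy1-CRE(ERT2/EYFP), in which the *Thy1* promoter, active in neurons, drives a tamoxifen-inducible Cre against the floxed aryl hydrocarbon receptor gene *Ahr*. Controls carried floxed *Ahr* without a Cre in their label, as fl/+ in replicates 1 and 2 and fl/fl in replicate 3 of the naive and the injured groups, as fl/fl in all neuron controls, and as f/+ in mouse 1 and fl/fl in mouse 2 of the sham controls. Naive and injured mice of both genotypes had received tamoxifen (100 mg/kg, daily for 5 days) at 28 weeks of age, 5 weeks before collection or surgery. For the sham and neuron mice age and tamoxifen interval are not given in the sources used here. Naive ganglia (3 mice per genotype, 1 mouse per sample) had no surgery, and injured ganglia (3 mice per genotype) followed sciatic nerve crush by 1 day. For the sham groups, 2 mice per genotype gave ganglia of both sides at 1 day, with ipsilateral meaning the side of the surgery. Semi-purified neurons were harvested after 24 h in culture (3 replicates per genotype, whose separate animals the labels do not state). By label the naive and neuron mice were female and the sham mice male, with 1 male among the 3 injured mice of each genotype.

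Total counts were 20169388 to 23540375 per library in naive and injured ganglia, 39306414 to 58751270 in sham ganglia and 25299938 to 88180611 in neurons, of which Hox genes took 5607 to 20110 counts. One count was worth 0.0114 to 0.0493 CPM (the count scaled by the TMM-adjusted library total, the level used throughout unless another is named). *Ahr* did not separate the genotypes at gene level in any setting (log2 fold change of cKO against control from -0.05 to 0.17, smallest edgeR adjusted p 0.754), while *Thy1* did not overlap between cKO and control libraries in any of the 5 settings. In 2 injured libraries, control replicate 3 and cKO replicate 2, the sex-linked transcripts were those of the other sex than labelled. All 8 neuronal markers were above 1 CPM in every group.

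The results turn on a few genes whose promoter sequence is held in the RefSeq promoter table (GRCm38.p6), which matched 22 of the 39 genes in 24 windows. Shown are the 250 bases before the start of *Hoxd1* and *Hoxb8*, which fell after injury and in culture in both genotypes, and of *Hoxb4*, which rose in culture. Capitals mark every match, on either strand, to GCGTG (the core recognised by AhR with its partner ARNT), to TGATNNAT (a site shape bound by Hox proteins with Pbx) or to TATAAA, and no base was shared by 2 matches in these windows.
*Hoxd1*, chr2:74762730-74762979, plus strand: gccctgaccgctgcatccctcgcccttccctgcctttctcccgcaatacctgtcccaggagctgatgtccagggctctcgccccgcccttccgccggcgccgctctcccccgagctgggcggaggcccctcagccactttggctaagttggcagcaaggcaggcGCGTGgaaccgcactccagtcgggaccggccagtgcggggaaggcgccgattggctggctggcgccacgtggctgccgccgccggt
*Hoxb8*, chr11:96281655-96281904, plus strand: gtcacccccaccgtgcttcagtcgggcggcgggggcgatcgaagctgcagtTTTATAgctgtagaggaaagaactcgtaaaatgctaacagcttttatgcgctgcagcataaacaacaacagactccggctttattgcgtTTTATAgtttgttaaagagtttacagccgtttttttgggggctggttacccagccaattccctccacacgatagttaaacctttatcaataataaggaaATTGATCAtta
*Hoxb4*, chr11:96318017-96318266, plus strand: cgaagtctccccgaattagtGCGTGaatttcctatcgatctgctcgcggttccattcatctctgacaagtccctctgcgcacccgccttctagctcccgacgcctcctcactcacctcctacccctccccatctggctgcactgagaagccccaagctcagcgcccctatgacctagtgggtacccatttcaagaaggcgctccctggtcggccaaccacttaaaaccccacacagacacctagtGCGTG
The *Hoxd1* window held 1 GCGTG at 71.6% G or C, the *Hoxb8* window 2 TATAAA and 1 TGATNNAT at 44.4%, and the *Hoxb4* window 2 GCGTG at 58.0%. Among the 24 Hox windows 7 held GCGTG, against 28.2% of all 32851 promoter windows of this length. TGATNNAT was in 4 of the 24 (7.68% of all windows) and TATAAA also in 4 (12.4%).

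The position profile of lumbar ganglia reached into the posterior part of every cluster and ended between the ninth and the eleventh paralog. Counting a gene as detected at a group mean of at least 1 CPM, 28 of 39 Hox genes were detected in naive control ganglia. The last detected paralogs were *Hoxa11*, *Hoxb9*, *Hoxc10* and *Hoxd11*. Just above that limit stood *Hoxd4* (1.02 CPM), and just below it *Hoxc11* (0.850 CPM) and *Hoxa4* (0.719 CPM). The same count was 27 in naive cKO ganglia, 28 in both injured groups, 27 or 28 in the 4 sham groups, 28 in control neurons and 29 in cKO neurons.

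**Figure D1:**
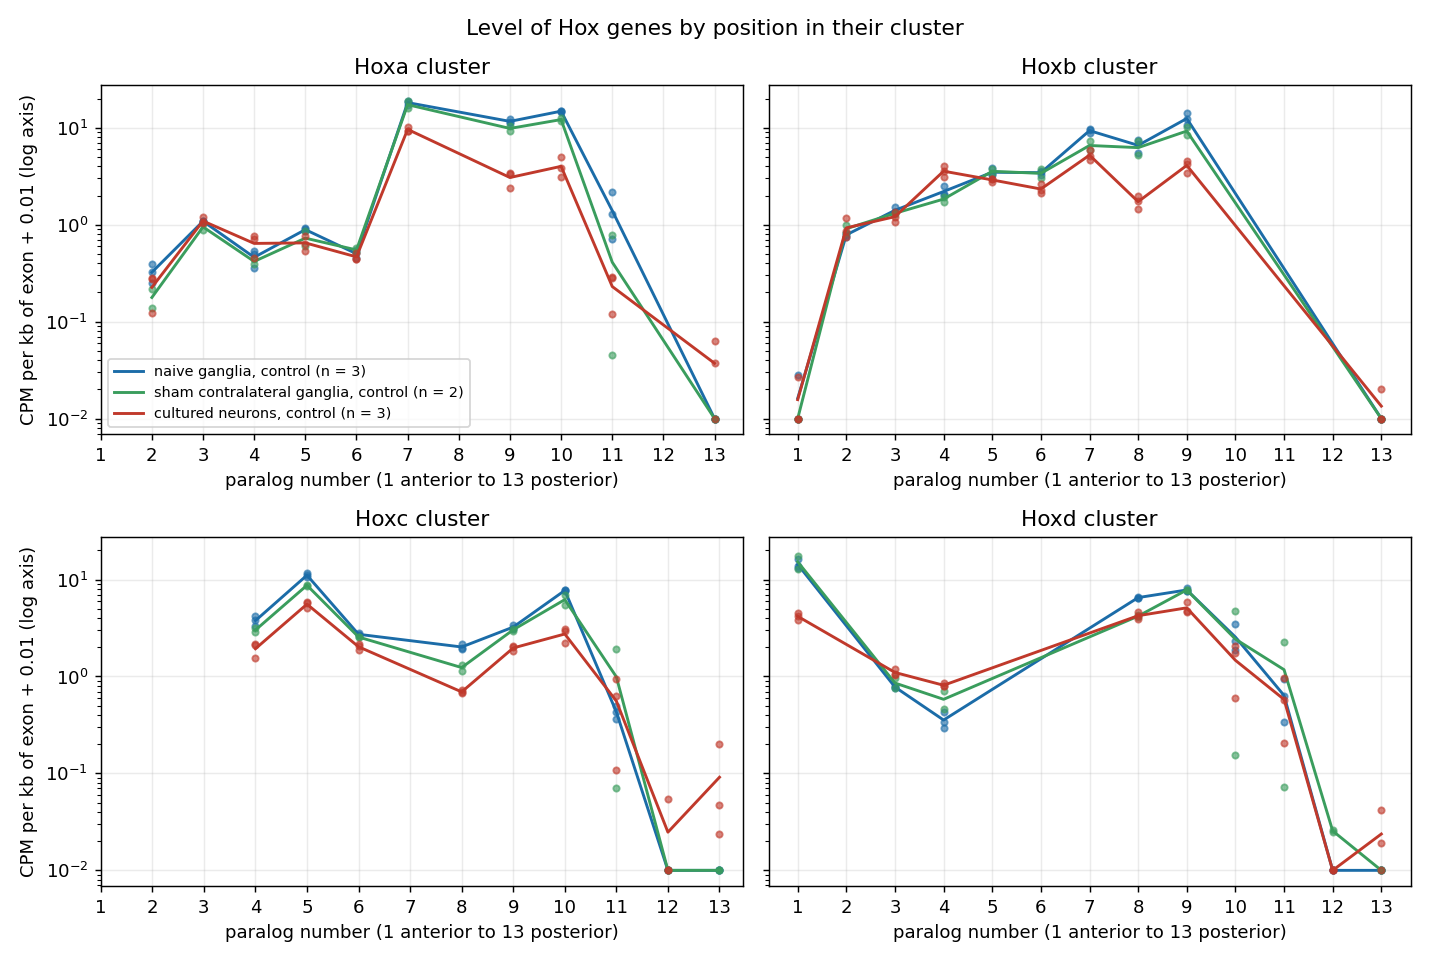
Level of Hox genes by paralog number in the *Hoxa*, *Hoxb*, *Hoxc* and *Hoxd* clusters, as CPM per kb of exon plus 0.01 on a log axis, in control naive ganglia (blue, n = 3), control sham contralateral ganglia (green, n = 2) and control cultured neurons (red, n = 3). Points are libraries and lines join group means, which drop beyond the ninth to eleventh paralog in all 3 groups, with neurons below the ganglia over paralogs 7 to 10 of the *Hoxa* cluster.

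Levels of different genes were compared per length, as FPKM. In the deposited tables this is the count per kb of the whole gene span with introns. *Hoxd1* had the highest FPKM of all Hox genes in naive control ganglia, at 13.4 ± 1.36 FPKM (SD, n = 3). Next came *Hoxa9* at 8.81 ± 0.287 FPKM, *Hoxa7* at 7.70 ± 0.187, *Hoxd9* at 7.28 ± 0.534 and *Hoxb9* at 6.75 ± 0.791. *Hoxd1* thus stood above the spread of the next gene, while *Hoxa7* and *Hoxd9* did not differ beyond theirs. Scaled to exon length instead, *Hoxa7* led with 18.2 ± 0.870 CPM per kb, followed by *Hoxa10* (14.8 ± 0.309), *Hoxd1* (14.3 ± 1.64), *Hoxb9* (12.5 ± 1.74) and *Hoxa9* (11.6 ± 0.530), and the *Hoxd1* value overlapped with those of *Hoxa10* and *Hoxb9* within their SD. *Hoxa7*, *Hoxa9* and *Hoxa10* are neighbours in the *Hoxa* cluster. The step in front of them is steep: *Hoxa6* had 0.430 CPM and *Hoxa7* 52.3 CPM in naive control ganglia.

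Paralogs 9 to 13 together made up 42.9%, 40.4% and 41.4% of the summed Hox FPKM in the 3 naive control mice. In control neurons their share was 36.1%, 35.8% and 30.9%, below every naive control mouse. In the sham contralateral controls it was 44.98% and 36.2%, so both sham mice lay outside the naive range, one on each side. Injured ganglia had 46.2% to 50.3% over the 6 mice of both genotypes, above all 6 naive mice (40.4% to 43.9%). By CPM the share was 48.1% to 51.25% in injured and 45.6% to 46.4% in naive control mice. In cKO mice it was 50.7% to 51.3% against 46.1% to 47.8%. Ipsilateral sham ganglia had 46.7% and 39.7% of the FPKM in control and 58.8% and 48.4% in cKO mice, with 58.8% the highest of all libraries. The summed FPKM of paralogs 9 to 13 overlapped, at 30.8 to 38.0 FPKM in injured and 33.8 to 37.3 in naive mice, while that of paralogs 1 to 8 was 33.5 to 38.6 against 47.3 to 52.1 FPKM without overlap. Paralogs 1 to 8 include *Hoxd1*, the gene of highest FPKM in naive control ganglia, which fell most after injury. In control means the share of paralogs 1 to 5 was 27.2% naive and 21.3% injured. That of paralogs 6 to 8 was 31.2% and 30.6%. Shares without *Hoxd1* were not computed. These shares are given as a description, without a test.

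Some of these levels rest on reads that 2 or more genes share. In this annotation 21 Hox genes are overlapped by others over less than 50% of their span, among them 16 that overlap no other gene, and 12 are overlapped over all of it, and reads in a shared stretch were counted for each gene. *Hoxc5* has an annotated span of 49987 bp that contains *Hoxc6*, *Hoxc8* and *Hoxc9* and 87.3% of *Hoxc10*. Its 25792 counts over all libraries compare with 26757 for those 4 genes together (92.5% to 125% per library), so the *Hoxc5* value cannot be told apart from its neighbours. *Hoxb5* and *Hoxb6* lie whole within the antisense gene *Hoxb5os*, whose counts they equalled to 96.9%, and *Hoxd8* lies within *Hoxd3os1* at 81.9% of its counts. *Hoxa3* (which spans *Hoxa4*, *Hoxa5* and *Hoxa6*), *Hoxd3* and *Hoxd4* are uncertain in the same way. *Hoxd1*, *Hoxb4*, *Hoxb7*, *Hoxb8*, *Hoxb9*, *Hoxa10*, *Hoxc4*, *Hoxc11* and *Hoxd9* share no stretch with another gene.

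The genes at the posterior border varied more between mice than the rest of the family. Within the groups of naive and injured mice the coefficient of variation was 48.3% for *Hoxa11*, 44.9% for *Hoxc11*, 34.2% for *Hoxd11* and 32.4% for *Hoxd10*. The other 24 Hox genes with a mean of at least 1 CPM in those mice ranged from 3.05% (*Hoxd8*) to 17.1% (*Hoxd4*), with a median of 8.06%. These 4 genes were singled out after their values had been seen. *Hoxd10* (6.93 CPM) varied by 32.4%, while the other genes between *Hoxb3* (5.29 CPM) and *Hoxc9* (7.69 CPM) in level varied by 5.35% (*Hoxa3*) to 12.6% (*Hoxb4*). Lower down, *Hoxd4* and *Hoxc11* had near-equal means of 1.03 CPM each, with coefficients of variation of 17.1% and 44.9%.

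*Hoxd11*, a patterning gene of the posterior trunk and limb, had 3.90, 2.64 and 1.39 CPM in control and 5.32, 5.41 and 2.83 CPM in cKO mice without injury, then 3.45, 7.55 and 5.62 CPM in injured control and 5.26, 3.65 and 5.54 CPM in injured cKO mice. *Hoxd10*, its neighbour, known from lumbar motor neuron identity, had 6.26, 4.21 and 3.37 CPM, then 8.84, 8.34 and 4.44, then 5.08, 10.9 and 9.64, then 7.50, 5.62 and 8.87 CPM in the same order. Replicate 3 was the lowest in both naive groups for both genes, and all 4 groups overlapped. Over these 12 mice *Hoxd10* and *Hoxd11* ranked the mice almost identically: Pearson's r of log2(CPM + 0.1) was 0.97 and Spearman's rho 0.99, with a permutation p of 2e-05 for each, the smallest that the 100000 permutations can give (adjusted over 6 pairs of genes, 0.00012). The r was 0.98 without the 2 mice farthest from the median of *Hoxd10*, 0.96 among the 6 naive mice and 0.97 among the 6 injured ones. Both genes overlap *Gm28309* (over 71.4% of the *Hoxd10* and 47.9% of the *Hoxd11* span) but not each other.

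For *Hoxc11*, on another chromosome, r was 0.64 with *Hoxd10* (permutation p 0.0224, adjusted 0.0672; rho 0.64, adjusted 0.0606) and 0.58 with *Hoxd11* (permutation p 0.0646, adjusted 0.129; rho 0.64, adjusted 0.0606). Neither passed 0.05 after adjustment. For *Hoxa11* and the other 3 genes r lay between -0.04 and 0.40 (smallest adjusted permutation p 0.28), and the highest *Hoxa11* value, 4.98 CPM in naive control replicate 1, came from a mouse with a middling *Hoxc11* of 0.858 CPM. The mice share one dissection range of lumbar levels, and ganglia of single levels were not sequenced apart.

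The sham mice varied widely in these genes, between mice and between both sides of an animal. *Hoxc11* had 3.84 CPM contralaterally and 3.96 CPM ipsilaterally in control mouse 1, 0.122 and 1.36 CPM in control mouse 2, 3.39 and 18.4 CPM in cKO mouse 1 and 0.885 and 6.05 CPM in cKO mouse 2. The operated side was thus 11.1-fold, 5.43-fold and 6.84-fold higher in 3 mice and 1.03-fold in the other. Between mice the contralateral values ran from 0.122 to 3.84 CPM and the ipsilateral ones from 1.36 to 18.4 CPM. The lowest of these values rests on 6 counts and the highest on 848. Skeletal muscle markers also varied between the sham libraries: the 4 markers summed to 56.9 CPM contralaterally and 17.2 ipsilaterally in control mouse 1, 231 and 3.43 in control mouse 2, 320.0 and 15.6 in cKO mouse 1 and 17.65 and 1371 in cKO mouse 2, against 1.64 to 19.2 CPM in naive and injured ganglia. The part of muscle in the Hox values was not tested.

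*Hoxd11* was higher on the operated side in the same 3 mice, with ratios of 17.4, 2.83 and 5.74, and lower in control mouse 1 (0.751). *Hoxd10* gave ratios of 12.3, 2.63, 3.67 and 0.947 in that order, and *Hoxa11* 5.38, 2.19, 1.57 and 0.879. Control mouse 1 was the exception for all 4 genes but not for *Hoxc10*, the next gene forward in its cluster, whose ratios were 1.13 in control mouse 1, 1.09 in control mouse 2, and 1.38 and 1.25 in the cKO mice. *Hoxa10*, 1 place in front of *Hoxa11*, had ratios between 0.889 and 1.15. The *Hotair* RNA gene, between *Hoxc11* and *Hoxc12*, averaged 1.15 CPM in ipsilateral and 0.145 CPM in contralateral cKO ganglia, and 0.174 and 0.114 CPM in those of controls.

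**Figure D2:**
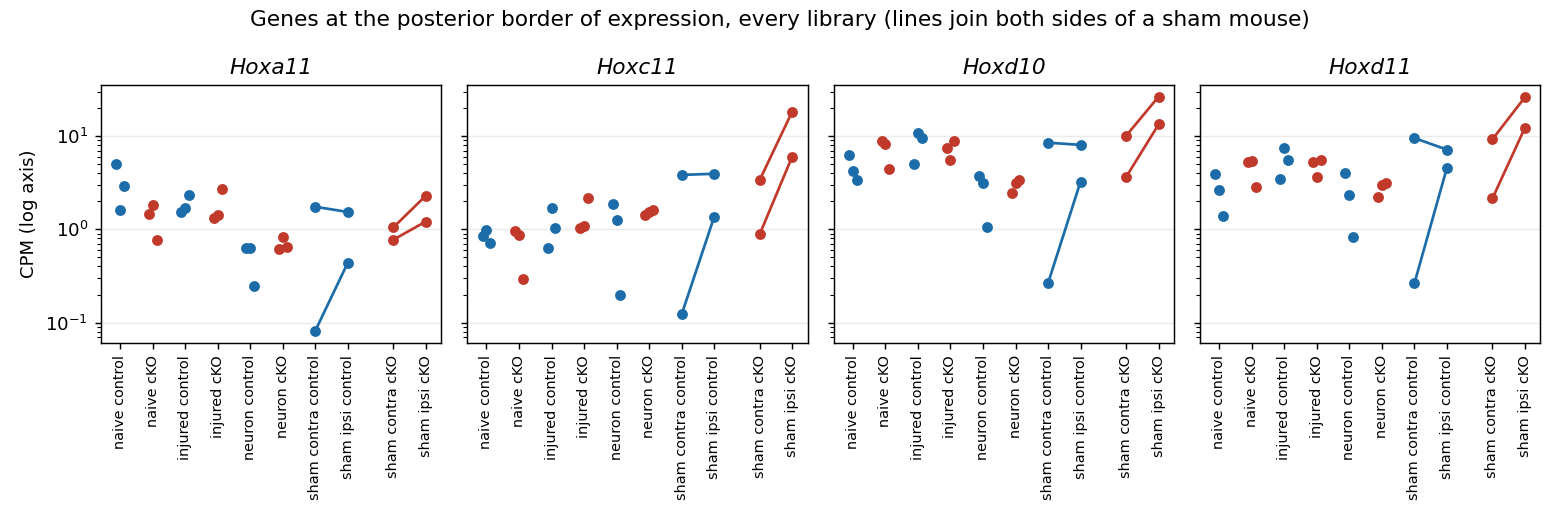
CPM on a log axis of *Hoxa11*, *Hoxc11*, *Hoxd10* and *Hoxd11* in every library, control in blue and cKO in red, with lines joining the contralateral and ipsilateral ganglia of each sham mouse. Ipsilateral ganglia of cKO mouse 1 are the highest of all 26 libraries for *Hoxc11* (18.4 CPM), and contralateral ganglia of control mouse 2 the lowest (0.122 CPM).

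No Hox gene passed the test between the sides (0 of 32 tested by edgeR, 0 by DESeq2, against 0.00451% of all genes called), and without pairing the sides by mouse 1 had an unadjusted p under 0.05, as did 7.56% of all genes. With the mouse as a block the log2 fold change of *Hoxc11* was 1.83 (SE 0.423, unadjusted p 0.00509, adjusted p 0.333), that of *Hoxd11* 1.61 (SE 0.621, adjusted p 0.509) and that of *Hoxd10* 1.43 (SE 0.482, adjusted p 0.46). That of *Hoxc10* was 0.30 (SE 0.0662, unadjusted p 0.00439, adjusted p 0.315), and again 0 Hox genes were called (4 of 22160 genes, 0.0181%). In this paired fit 9 of 32 Hox genes had an unadjusted p under 0.05 (9.4% of all genes). Of these, *Hoxc10*, *Hoxc11*, *Hoxd10* and *Hoxd11* had positive log2 fold changes on the operated side and *Hoxd1*, *Hoxb8*, *Hoxc8*, *Hoxb5* and *Hoxa7* negative ones, of -0.32 to -0.12. The operated side was lower in all 4 mice for *Hoxd1*, with ratios of 0.773 to 0.925. For *Hoxb8* it was lower in the cKO mice alone, with ratios of 0.657 and 0.623 against 1.17 and 1.00 in control mice. Without control mouse 1 the unblocked *Hoxc11* value rose from 1.5 to 3.0, and without control mouse 2 it was 1.30.

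Beyond the border the family was close to silent. *Hoxd12* and *Hoxd13* had no count in the 12 naive and injured libraries, and *Hoxa13*, *Hoxb13*, *Hoxc12*, *Hoxc13* and the foremost gene *Hoxb1* had 1 or 2 counts each over all of them. Traces appeared elsewhere: *Hoxc12* reached 0.596 CPM (26 counts) in ipsilateral ganglia of sham cKO mouse 2 and 0.195 CPM (9 counts) in mouse 1, and had no count on the contralateral side of any sham mouse, where 3 counts would be 0.0571 to 0.083 CPM. *Hoxc13* was highest in control neuron replicate 1, at 0.476 CPM. These levels lie below the detection limit used here.

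The cKO was compared with its controls in 5 settings. In naive ganglia 0 of 31 tested Hox genes were called (edgeR, 0.00941% of all genes called; 0 by DESeq2), and 2 had an unadjusted p under 0.05 (5.79% of all genes). In injured ganglia 0 of 31 were called (0.00941% of all genes; 0 by DESeq2), and 1 had an unadjusted p under 0.05 (2.72%). In neurons 0 of 33 were called (0% of all genes; 0 by DESeq2), and 1 had an unadjusted p under 0.05 (8% of all genes). In ipsilateral sham ganglia 0 of 32 were called (0.00451%; 0 by DESeq2), with 5 at an unadjusted p under 0.05 (7.59%), and in contralateral ones 0 of 32 (0%; 0 by DESeq2), with 0 at an unadjusted p under 0.05 (5.23%). The median log2 fold change over the tested Hox genes lay between -0.02 and 0.02 in all 5. In naive ganglia *Hoxd1* had 25.5, 30.1 and 24.4 CPM in control against 25.1, 24.9 and 28.4 CPM in cKO mice, and the groups overlapped.

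The 5 Hox genes at an unadjusted p under 0.05 in ipsilateral sham ganglia (2 mice per genotype) were *Hoxb7*, *Hoxb8*, *Hoxb9* and *Hoxc8*, lower in cKO, and *Hoxc10*, higher. *Hoxb8*, a posterior-trunk gene, had 16.0 and 19.2 CPM in control and 8.83 and 11.9 CPM in cKO mice (log2 fold change -0.73, SE 0.234, edgeR adjusted p 0.552). *Hoxb9* had 26.8 and 26.3 against 14.6 and 18.5 CPM (log2 fold change -0.65, SE 0.224, edgeR adjusted p 0.564), and *Hoxc8* 3.26 and 4.18 against 1.91 and 2.39 CPM (log2 fold change -0.75, SE 0.209, edgeR adjusted p 0.528). The groups did not overlap for 12 lower and 6 higher Hox genes of 32 in this comparison, where 22.3% and 13.5% of all genes did so. Without a filter on low counts 3 Hox genes were called here, *Hoxb8* and *Hoxb9* lower and *Hoxc12* higher, and 1.79% of all genes were called under that setting. In the same comparison the skeletal muscle markers summed to 15.6 and 1371 CPM in the cKO and to 17.2 and 3.43 CPM in the control mice, with a median log2 fold change of 6.13. The summed dividing-cell markers (28.1 and 20.0 CPM in cKO against 13.4 and 9.25 CPM in control mice), macrophage markers (48.9 and 38.5 against 36.6 and 31.3 CPM) and neuronal markers (8510 and 8672 against 9080 and 9623 CPM) did not overlap between genotypes, while the satellite glia, Schwann cell, fibroblast, endothelial and spinal cord sums did. Of all these markers 0 were called, and their part in the Hox values was not tested.

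A part of the family was lower 1 day after sciatic nerve crush, in both genotypes. In control mice 11 of 31 tested Hox genes fell and 0 rose (edgeR, where 8.73% of all genes fell and 12.9% rose), and in cKO mice 8 fell and 1 rose (7.89% and 10.7%). The median log2 fold change over the tested Hox genes was -0.23 in control and -0.16 in cKO mice, against -0.02 and 0.00 over all genes. *Hoxd1*, *Hoxb8*, *Hoxb6*, *Hoxb7*, *Hoxb3*, *Hoxa10* and *Hoxa7* fell in both genotypes, which is 63.6% of the control and 77.8% of the cKO calls. With sex as read from transcripts as a term, *Hoxd1*, *Hoxa7* and *Hoxb7* kept their call in cKO mice, while *Hoxb8* (-0.67, edgeR adjusted p 0.0507), *Hoxb6* (-0.67, 0.0839), *Hoxb3* (-0.39, 0.139) and *Hoxa10* (-0.23, 0.195) kept the direction and lost it. The control and cKO comparisons share no library, but they come from the same fit and share its estimate of the spread, so they are not fully independent.

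*Hoxd1* fell most. It had 25.5, 30.1 and 24.4 CPM in naive and 11.5, 12.3 and 14.5 CPM in injured control mice, and 25.1, 24.9 and 28.4 against 13.6, 11.3 and 15.2 CPM in cKO mice. Every injured mouse lay below every naive mouse of either genotype. The log2 fold change was -1.06 in control (SE 0.126, edgeR adjusted p 0.000128) and -0.98 in cKO mice (SE 0.126, edgeR adjusted p 0.00024), which is 0.481 and 0.506 of the naive level. Leaving out single mice moved these to between -1.16 and -0.96 and between -1.09 and -0.88.

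Central genes of the *Hoxb* cluster also fell. *Hoxb8* had 14.5, 19.7 and 17.9 CPM in naive and 9.39, 10.5 and 11.9 CPM in injured control mice, and 16.3, 15.7 and 17.5 against 10.4, 11.7 and 12.8 CPM in cKO mice. The log2 fold changes were -0.71 (SE 0.126, edgeR adjusted p 0.00186) and -0.52 (SE 0.125, edgeR adjusted p 0.0126), without overlap in either genotype. *Hoxb6*, which shares its reads with *Hoxb5os*, fell by 0.67 (SE 0.142) in control and by 0.50 (SE 0.141) in cKO mice, and *Hoxb7* by 0.37 (SE 0.0772) and 0.28 (SE 0.0778).

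*Hoxb9*, the last active gene of that cluster, did not go down with its neighbours. It had 27.7, 36.6 and 32.0 CPM in naive and 32.0, 35.2 and 34.6 CPM in injured control mice, which overlapped (log2 fold change 0.08, SE 0.101, edgeR adjusted p 0.617). In cKO mice it rose from 28.9, 28.6 and 32.9 CPM to 35.2, 40.2 and 40.5 CPM (log2 fold change 0.34, SE 0.1, edgeR adjusted p 0.0327). Adjusting for sex as read from transcripts, the cKO value was 0.21 (edgeR adjusted p 0.426) and no longer called.

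**Figure D3:**
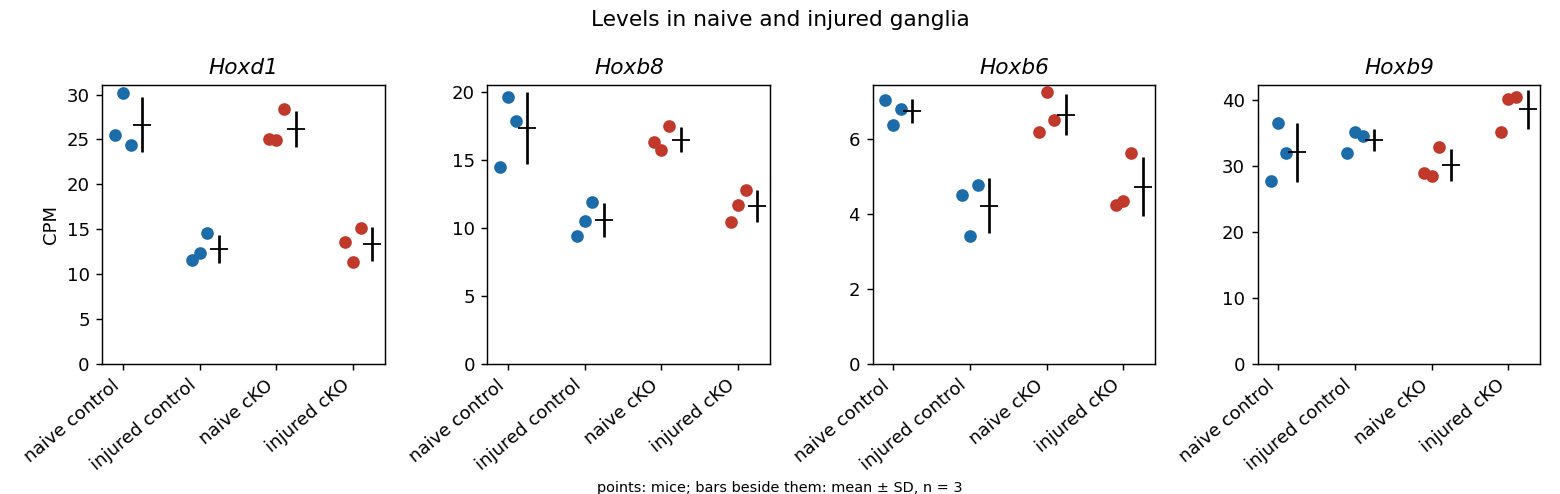
CPM of *Hoxd1*, *Hoxb8*, *Hoxb6* and *Hoxb9* in each naive and injured mouse, control in blue and cKO in red, with the mean ± SD (n = 3) beside each group. All 6 injured mice are below all 6 naive mice for *Hoxd1* and *Hoxb8*, while *Hoxb9* does not fall.

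The genes of the *Hoxa* cluster with the highest counts fell by less than *Hoxb8* and *Hoxb6*. *Hoxa10* had 49.1, 47.3 and 49.1 CPM in naive and 36.8, 38.7 and 41.7 CPM in injured control mice (log2 fold change -0.31, SE 0.0657, edgeR adjusted p 0.00535), and -0.25 (SE 0.0654, edgeR adjusted p 0.0188) in cKO mice. *Hoxa7* changed by -0.21 (SE 0.052) and -0.28 (SE 0.0521), and *Hoxa9*, which fell in control mice by 0.25 (SE 0.064), had a value of -0.18 (SE 0.0638, edgeR adjusted p 0.0722) in cKO mice. *Hoxa3*, *Hoxc5* and *Hoxc8* were called lower in control mice only and *Hoxc6* in cKO mice only, and the interaction test called none of them different.

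In the *Hoxd* cluster *Hoxd1* was the 1 gene of 7 tested that was called, in both genotypes, and the cluster's median log2 fold change was 0.11 in control and 0.00 in cKO mice. *Hoxd8* had 17.8, 18.2 and 17.5 CPM in naive and 19.6, 19.0 and 19.1 CPM in injured control mice, a log2 fold change of 0.11 (SE 0.0575, edgeR adjusted p 0.199). *Hoxd10* and *Hoxd11* had values of 0.90 (SE 0.33) and 1.08 (SE 0.373) in control but 0.02 (SE 0.322) and 0.09 (SE 0.358) in cKO mice, none of them called.

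No Hox gene was called for a different injury response between the genotypes: the interaction called 0 of 31 (edgeR, 0% of all 21261 genes; 0 by DESeq2), with a median of 0.07, and 1 had an unadjusted p under 0.05 (2.95% of all genes). Averaged over genotypes 13 fell and 1 rose (15.7% and 18.4% of all genes). Markers of the cell types in the ganglia were read beside these changes. Over all genes 8.73% fell and 12.9% rose in control mice, and 7.89% and 10.7% in cKO mice. Of 8 neuronal markers 1 fell in control and 2 in cKO mice, and their summed level was 5725 to 6734 CPM in naive and 5695 to 6118 CPM in injured control mice. Of 4 Schwann cell, 5 fibroblast, 4 macrophage, 4 skeletal muscle and 2 dividing-cell markers 0 were called in either genotype. Of 3 satellite glia markers 1 rose and 1 fell and of 4 endothelial markers 1 fell in control mice, with 0 called in cKO mice. The 1 spinal cord marker tested of 5 fell in cKO mice by 0.88 and had a log2 fold change of -0.71 in control mice. Averaged over genotypes 1 fibroblast and 1 dividing-cell marker also fell, and the dividing-cell markers summed to 10.98 to 51.3 CPM in naive and 8.22 to 16.7 CPM in injured control mice and to 9.715 to 29.3 and 6.31 to 8.06 CPM in cKO mice. The part of cell makeup in the Hox values was not tested. In bulk tissue fewer cells of a type and less RNA per cell cannot be told apart.

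The count in cKO mice was the less steady one. It was 4 without naive cKO replicate 1, 5 without naive cKO replicate 2, 4 without injured cKO replicate 2 and 3 with sex by transcripts as a term. In control mice it was 7 without injured control replicate 2 and 7 to 12 over all mice left out in turn.

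Some partners of the Hox proteins were also called after injury. Hox proteins bind DNA with cofactors of the TALE class (Pbx, Meis and Prep proteins), and of 9 such genes 4 fell and 1 rose in control mice (8.73% and 12.9% of all genes) and 2 fell and 1 rose in cKO mice (7.89% and 10.7%). *Pknox1*, which encodes Prep1, rose by 0.43 (SE 0.0808, edgeR adjusted p 0.00254) and 0.42 (SE 0.0813, edgeR adjusted p 0.00338) on the log2 scale, and *Pknox2* and *Pbx2* fell in both genotypes, *Pknox2* by 0.27 (SE 0.0627) and 0.40 (SE 0.0628). *Meis2* fell by 0.47 (SE 0.112) in control mice.

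Polycomb complexes keep Hox genes silent and Trithorax complexes keep them active. Of 21 such regulators tested 4 rose and 2 fell in control mice, and 4 rose and 3 fell in cKO mice, beside the same shares of all genes. *Men1*, which encodes the Trithorax partner menin, rose by 0.39 (SE 0.0749) and 0.27 (SE 0.0749), and *Cbx7*, a Polycomb subunit, fell by 0.40 (SE 0.0645) and 0.35 (SE 0.0645). Of 9 tested genes of the retinoic acid, Cdx and Gdf11 pathways, which set Hox expression in the embryo, 2 fell and 0 rose in control mice (8.73% and 12.9% of all genes). These were *Aldh1a3*, which makes retinoic acid, by 0.81 (SE 0.186), and *Cyp26b1*, which degrades it, by 0.90 (SE 0.265). Neither was called in cKO mice (-0.22, SE 0.19, and 0.03, SE 0.264). There 1 rose and 1 fell (10.7% and 7.89% of all genes), *Cyp26a1* by 2.76 (SE 0.82) and *Rarg* by 0.36 (SE 0.0869). *Cyp26a1* averaged only 0.0872 CPM in naive and 0.634 CPM in injured cKO mice, and its control value of 2.22 (SE 0.793) was not called. Of 7 tested genes just outside the clusters 1 rose in control (*Skap2*, 0.33, SE 0.0983) and 1 fell in cKO mice (*Calcoco1*, by 0.23, SE 0.0653), beside 12.9% of all genes that rose in control and 7.89% that fell in cKO mice.

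Cultured neurons had less Hox RNA than whole ganglia, and the median difference was larger towards the posterior end. Against naive ganglia 20 of 32 tested Hox genes were lower and 4 higher in control (edgeR; 41.3% and 40% of all genes) and 19 lower and 3 higher in cKO (39.6% and 40.5%). The 3 higher and 19 lower genes in cKO were all called in the same direction in control. These comparisons share no library, but they come from the same fit and share its estimate of the spread. Summed Hox CPM was 419.56 to 436 in naive control ganglia and 185.2 to 222 in control neurons. The median log2 fold change in control was -0.19 over the 14 tested genes of paralogs 1 to 5, -0.74 over the 8 of paralogs 6 to 8 and -1.17 over the 10 of paralogs 9 to 11. In cKO these medians were -0.23, -0.68 and -1.11.

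**Figure D4:**
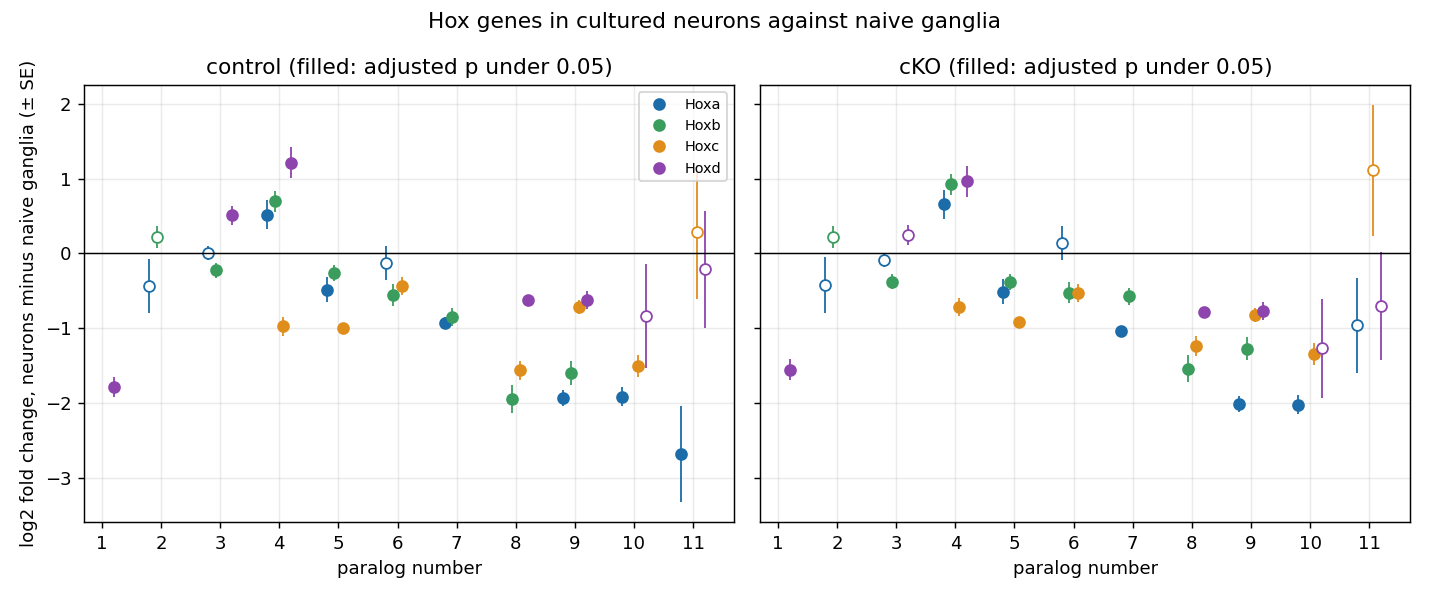
Log2 fold change of cultured neurons against naive ganglia (± SE) by paralog number in control (left) and cKO (right), coloured by cluster and filled where the edgeR adjusted p was under 0.05. *Hoxa4*, *Hoxb4* and *Hoxd4* lie above 0 in both genotypes, while the called genes from paralog 6 on lie below it, as do 6 called genes of paralogs 1 to 5, *Hoxd1* lowest among them.

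Members of the fourth paralog group were among the few that rose. *Hoxb4*, a hindbrain and cervical-level gene, had 5.19, 6.34 and 5.35 CPM in naive control ganglia and 10.3, 9.21 and 7.89 CPM in control neurons, without overlap (log2 fold change 0.69, SE 0.139, edgeR adjusted p 0.00012; 0.92, SE 0.14, edgeR adjusted p 4.14e-06 in cKO). *Hoxd4* was 1.21 higher on that scale (SE 0.205) in control and 0.96 (SE 0.206) in cKO, and *Hoxa4* 0.52 (SE 0.198) and 0.66 (SE 0.194), though both share all of their span with other genes. *Hoxc4*, the fourth member, fell by 0.97 (SE 0.126) and 0.71 (SE 0.124). *Hoxd3* rose by 0.51 (SE 0.133) in control.

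At the posterior end *Hoxa9* had 63.1, 68.4 and 63.3 CPM in naive control ganglia and 18.7, 19.2 and 13.3 CPM in control neurons, a log2 fold change of -1.93 (SE 0.105, edgeR adjusted p 4.1e-13), and -2.01 (SE 0.104, edgeR adjusted p 1.78e-13) in cKO. *Hoxa10* fell by 1.91 (SE 0.126) and 2.02 (SE 0.125), *Hoxb8* by 1.94 (SE 0.184) and 1.54 (SE 0.178), *Hoxb9* by 1.6 (SE 0.157) and 1.27 (SE 0.154) and *Hoxc10* by 1.5 (SE 0.149) and 1.34 (SE 0.146). *Hoxd1* fell by 1.78 (SE 0.139) and 1.55 (SE 0.136), and it was 1 of 6 genes of paralogs 1 to 5 called lower in each genotype, with *Hoxa5*, *Hoxb3*, *Hoxb5*, *Hoxc4* and *Hoxc5*. Control neurons had 7.77, 7.06 and 8.44 CPM, below all injured ganglia as well. *Hoxd8* and *Hoxd9* fell by less, by 0.63 (SE 0.0791) and 0.62 (SE 0.118) in control.

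Of the 4 border genes *Hoxc11*, *Hoxd10* and *Hoxd11* were not called in culture in either genotype. *Hoxc11* had 1.86, 1.26 and 0.200 CPM in control neurons and 1.43, 1.55 and 1.61 CPM in cKO neurons, and *Hoxd11* 4.00, 2.36 and 0.833 against 2.23, 3.01 and 3.11 CPM. Control replicate 3 was the lowest of the 6 cultures for both, and for *Hoxd10* (1.07 CPM) and *Hoxa11* (0.250 CPM). *Hoxa11* was called lower in control (log2 fold change -2.68, SE 0.646, edgeR adjusted p 0.000762) and had a value of -0.96 (SE 0.636, edgeR adjusted p 0.17) in cKO.

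Naive ganglia and neurons come from separately deposited tables, whereas sham ganglia and neurons share one, so the same neurons were also set against contralateral sham ganglia, whose mice were male. Against these, 16 Hox genes were lower and 5 higher in control (36.2% and 34.1% of all genes) and 17 lower and 3 higher in cKO (36.4% and 31.9%). *Hoxb4* was 0.95 higher (SE 0.155) in control and 0.95 (SE 0.156) in cKO, and *Hoxa4* 0.67 (SE 0.208) and 0.93 (SE 0.214). *Hoxd4* was 0.48 higher (SE 0.207) in control and not called in cKO (log2 fold change 0.13, SE 0.209), and *Hoxc4* was lower by 0.65 (SE 0.136) and 0.55 (SE 0.135). In control the medians were 0.10 for paralogs 1 to 5, -0.44 for 6 to 8 and -1.03 for 9 to 11. These 2 comparisons share the neuron libraries and are not independent.

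Markers of cell types were read beside the change with culture, where 41.3% of all genes were lower and 40% higher in control neurons than in naive ganglia. Summed Schwann cell markers were 2297 to 2947 CPM in naive control ganglia and 615.5 to 696.6 CPM in control neurons (4 of 4 called lower), 2 of 3 satellite glia and 2 of 2 dividing-cell markers were lower, 4 of 5 fibroblast markers were lower and 1 higher, 3 of 4 macrophage markers were lower and 1 higher, and the 4 endothelial markers were all higher (87.21 to 118.4 against 887.8 to 1240 CPM summed). Of 8 neuronal markers 3 were higher and 5 lower, with 5725 to 6734 against 3938 to 4603 CPM summed. Against sham contralateral ganglia 8 of the 8 neuronal markers were lower in each genotype, with medians of -1.22 in control and -1.03 in cKO, and the 4 skeletal muscle markers were lower as well. Of all genes 36.2% were lower there in control and 36.4% in cKO. The part of these shifts in the Hox values was not tested. The labels name lumbar levels 4 to 6 for the cultures as for the ganglia.

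Among the partners, 5 of 9 TALE genes were lower and 3 higher in control neurons than in naive ganglia (41.3% and 40% of all genes), and 7 lower and 2 higher than in sham contralateral ganglia (36.2% and 34.1%). *Pknox2* fell by 1.19 (SE 0.0748) and *Pknox1* rose by 1.01 (SE 0.0851), and both were called in the same direction against sham ganglia. *Meis3* rose by 1.06 (SE 0.0841) against naive ganglia but was called lower against sham ganglia, by 0.22 (SE 0.0892), and was not called there in cKO. Of 21 Polycomb and Trithorax regulators 18 rose and 2 fell against naive ganglia (40% and 41.3% of all genes), with a median of 0.76. Against sham ganglia 15 were higher and 4 lower (34.1% and 36.2%). *Ring1* and *Men1* turned from higher (0.40 each, SE 0.071 and 0.0717) to lower (-0.30, SE 0.0763, and -0.21, SE 0.0785) between these references in control, and were not called against sham ganglia in cKO (-0.16, SE 0.0765, and 0.00, SE 0.0788). Of 10 tested retinoic acid, Cdx and Gdf11 pathway genes 5 fell and 1 rose against naive ganglia, and 4 were lower and 2 higher against sham ganglia, beside the same shares of all genes. Against sham ganglia *Rarb* was not called (-0.07, SE 0.171), *Aldh1a2* was not called in control (-1.95, SE 0.887) but lower in cKO (-2.55, SE 0.855), and *Cyp26b1* (0.78, SE 0.29) was called higher and *Rarg* (-0.30, SE 0.11) lower, neither of them called against naive ganglia. *Gdf11*, a signal for posterior Hox genes in the embryo, fell by 1.65 (SE 0.0736) and *Rara*, a retinoic acid receptor, rose by 1.19 (SE 0.119) against naive ganglia, and both were called in the same direction against sham ganglia.

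The clusters also hold 43 annotated genes that make no protein, of which 15 were tested after injury and 19 in culture. After injury 4 fell and 0 rose in each genotype (8.73% and 12.9% of all genes in control, 7.89% and 10.7% in cKO mice), the same 4 genes: *Haglr*, an antisense RNA of the *Hoxd* cluster, by 0.48 (SE 0.143) and 0.49 (SE 0.143), *Gm53* by 0.68 (SE 0.146) and 0.48 (SE 0.146), and *Hoxb3os* and *Hoxb5os*, which share reads with *Hoxb2* and with *Hoxb5* and *Hoxb6*. In control neurons 10 fell and 2 rose against naive ganglia (41.3% and 40% of all genes), and 6 were lower and 4 higher against sham contralateral ganglia (36.2% and 34.1%). *Hotairm1*, at the front of the *Hoxa* cluster, rose in control against both (0.79, SE 0.211, and 0.89, SE 0.226), and in cKO against naive ganglia (0.89, SE 0.213) but without a call against sham ganglia (0.22, SE 0.22). *Gm11539*, a pseudogene in the *Hoxb* cluster, shows a difference between the tables: it averaged 11.85 to 13.49 CPM in the 4 naive and injured groups and 0.318 to 0.594 CPM in the 4 sham and 2 neuron groups. Its log2 fold change in control neurons was -4.72 (SE 0.207) against naive and 0.68 (SE 0.291) against sham ganglia, both called.

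MicroRNA genes of the miR-10 and miR-196 families sit between the Hox genes, and miR-196 is known for acting on the *Hoxb8* message. Their mature sequences (RefSeq) are shown because the members of a family share a seed (bases 2 to 8, in capitals).
mmu-miR-10a-5p: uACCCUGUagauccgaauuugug
mmu-miR-10b-5p: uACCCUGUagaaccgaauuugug
mmu-miR-196a-5p: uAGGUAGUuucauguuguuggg
mmu-miR-196b-5p: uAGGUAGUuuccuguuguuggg
These libraries count long RNA, so a count at a hairpin is not a level of the mature microRNA. The hairpin genes *Mir10a*, *Mir10b* and *Mir196a-2* had 13, 4 and 1 counts over all 26 libraries. *Mir196a-1*, on the posterior side of *Hoxb9*, had 1.07 CPM in naive control ganglia and 0.310 CPM in control neurons (log2 fold change -1.72, SE 0.292), and *Mir196b*, inside the annotated span of *Hoxa9*, 0.415 and 0.117 CPM (-1.68, SE 0.416).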

How the data were processed

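RNA was measured in 26 libraries, made per the labels' protocols with the TruSeq Stranded mRNA kit. Trim Galore, HISAT2, featureCounts and the mm10 build are named in the submitters' processing notes, while versions and the strand setting of the counting are not given in the sources used here. The authors deposited gene counts, whole and not normalized, and FPKM in tables of 12 (naive and injured) and 14 libraries (sham and neurons). The deposited FPKM equals the count per kb of whole gene span, scaled to the library total, within 0.1%, for 100% of the values checked. The members, lists and tests were chosen with earlier results of these data known.

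Counts were filtered (filterByExpr, minimum count 10, minimum total 15), scaled by TMM and tested with edgeR 4.0.16 in R 4.3.3 by the quasi-likelihood test on group means, with Benjamini-Hochberg adjustment over all genes tested and calls at 0.05. One fit held the 12 libraries of naive and injured ganglia (21261 genes), and others the 6 neuron (23295), the 8 sham (22160) and, for neurons against ganglia, all 26 libraries (24101). An SE is the log2 fold change divided by the root of F. CPM values use the TMM factors of the joint fit. Alternatives used DESeq2 1.42.0, limma 3.58.1 on log2(FPKM + 0.1), other filters and scalings, covariates for sex, each library left out, and the replicate number as a block. Simulated counts with known changes were used to test the fits. Full statistics are given for the called Hox genes (if over 10, the 5 of smallest p in each direction), the last detected member of each cluster and its neighbour, the 5 highest by FPKM and up to 4 genes per companion list, and any other gene was chosen after its values were seen. P-values measure the spread between these libraries.

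The labels do not state that replicate numbers pair samples of the naive, injured and neuron groups, whereas the sham sides come from the same mice. Correlations of same-numbered libraries cannot decide this, since even both sides of a sham mouse gave 0.229 in control and -0.159 in cKO. The floor of 3 counts covers counting error only, whereas the SEs also carry the spread between libraries. Some items are not reported here.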

Additional observations from a re-analysis of the deposited data

Results flagged for a closer look

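Among 408 pairs of settings compared gene by gene, 4 had every cKO library on one side of the controls in one setting and on the opposite side in the other. The difference between the settings was not tested, and none of these values was called with the filter on low counts, while without it *Hoxb9* was called lower in ipsilateral sham ganglia. The log2 fold change of *Hoxb9* (cKO against control) was 0.18 in injured and -0.65 in ipsilateral sham ganglia. That of *Hoxd3* was -0.334 in cultured neurons and 0.313 in ipsilateral sham ganglia. *Hoxb3* had -0.129 in ipsilateral and 0.208 in contralateral sham ganglia. *Hoxb5* had -0.196 in ipsilateral and 0.137 in contralateral sham ganglia. With 2 mice per genotype on each sham side, groups without overlap are frequent: 22.3% of all genes were lower and 13.5% higher in this way in ipsilateral ganglia.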

How the results depend on the processing

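Of 829 single-gene values recomputed under other settings, for 59 gene results, 759 kept their direction and their side of the threshold, 70 kept the direction but were no longer called, and 0 reversed. Restricted to Hox genes overlapped over less than 50% of their span, the counts of called genes were 7 (injury, control), 9 (injury, averaged over genotypes), 12 and 11 (neurons against naive ganglia, control and cKO) and 10 and 10 (against sham contralateral ganglia). This is a smaller set of genes, so these counts cannot be read as a fall against those over all members. Of all genes 8.73% fell and 12.9% rose after injury in control mice, and 15.7% and 18.4% averaged over genotypes. Against naive ganglia 41.3% were lower and 40% higher in control neurons, and 39.6% and 40.5% in cKO neurons. Against sham contralateral ganglia these shares were 36.2% and 34.1%, and 36.4% and 31.9%. Without a filter on low counts 3 Hox genes were called between genotypes in ipsilateral sham ganglia, and with sex by transcripts as a term 3 after injury in cKO mice. The cause was not tested. The share of paralogs 9 to 13 in naive control ganglia was 46.0% from CPM and 47.1% from the less overlapped genes, and 43.2% from the latter in control neurons.

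With single libraries left out, called genes ranged from 7 to 12 (injury, control), 4 to 8 (injury, cKO), 11 to 14 (averaged), 21 to 24 and 22 to 22 (neurons against naive ganglia, control and cKO) and 17 to 21 and 16 to 20 (against sham contralateral ganglia), and stayed at 0 in every genotype comparison, the interaction and the sham sides. The share ranged from 40.9% to 42.1% (naive control), 36.2% to 45.0% (sham contralateral control) and 33.3% to 35.9% (control neurons), and detected genes from 26 to 28, 24 to 28 and 27 to 28. With the replicate number as a block, 13 (control), 9 (cKO) and 14 (averaged) Hox genes were called after injury, and 0 between genotypes in each setting, in the interaction and, with the mouse as block, between sham sides. The correlations of same-numbered neuron cultures were 0.0642, 0.12 and 0.221, and those of both sham sides 0.229 in control and -0.159 in cKO mice.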
